A study of Mus musculus with 42 samples.

Results

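The mRNA levels of 5 facilitative hexose transporters (Slc2a1 to Slc2a5) and 3 hexokinases (Hk1, Hk2 and Hk3) were examined in mice that carried 1 or both functional copies of Akt1. These 8 genes were chosen by name. The array listed 16 of its 41174 non-control probes under these names, and the genes were 8 of its 27597 named genes. The samples were liver, quadriceps muscle and visceral fat of female C57BL/6 mice, either wild-type (Wt) or heterozygous for a whole-body deletion of Akt1 (Akt1+/-), with no further treatment named in the labels. Each tissue had 14 one-colour Agilent arrays, made up of 3 arrays per genotype at 8 weeks of age and 4 per genotype at 35 weeks, so that 42 arrays were compared. The older age follows the labels, and the text of the study names a later age, so its exact value is uncertain. The labels do not say that the arrays of a group came from separate mice, so the p-values describe the spread between these samples. Akt1 itself, which checks the labels, differed between Akt1+/- and Wt samples by −0.67 ± 0.08 (log2, SE) in liver (limma adjusted p = 0.00251), −0.58 ± 0.11 in muscle (0.0747) and −0.55 ± 0.07 in fat (0.00649). With the replicate number as a block, the adjusted p of Akt1 was 0.0371 in muscle and 0.0701 in fat. At both ages and in all 3 tissues, every Akt1+/- array lay below every Wt array for Akt1 (exact permutation p = 0.00143 in each tissue, two-sided, the smallest that the design allows). The labels do not say whether the Akt1 probe lies in the deleted part of the gene.

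Glucose crosses cell membranes by facilitated diffusion through the SLC2A (GLUT) proteins and is then trapped in the cell as glucose 6-phosphate by hexokinases. GLUT1 (Slc2a1) and GLUT3 (Slc2a3) serve basal uptake, GLUT2 (Slc2a2) is the high-capacity transporter of hepatocytes and pancreatic beta cells, GLUT4 (Slc2a4) moves to the surface of muscle fibres and adipocytes when insulin activates Akt, and GLUT5 (Slc2a5) carries fructose. Hexokinase 1 is widely expressed, hexokinase 2 is the main form of insulin-responsive tissues, and hexokinase 3 is found mainly in myeloid blood cells.

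RefSeq start sites (GRCm38.p6) were listed for 6 of the 8 genes, with 7 windows of 250 bases before the start, and those of Slc2a3 and Slc2a4 were not shown. The windows of 4 genes are printed 5′ to 3′ on the strand of the gene, because Slc2a2 and Hk2 had the largest contrasts between tissues among the genes with an entry, and Slc2a5 and Hk1 differed between ages in liver. Capitals mark matches, on either strand, to any of the 7 motifs searched. They lie at chr3:28697653-28697902 on the plus strand (Slc2a2), chr4:150119094-150119343 on the plus strand (Slc2a5), chr10:62340422-62340671 on the minus strand (Hk1, the start nearer to the array's probes) and chr6:82774455-82774704 on the minus strand (Hk2).
Slc2a2: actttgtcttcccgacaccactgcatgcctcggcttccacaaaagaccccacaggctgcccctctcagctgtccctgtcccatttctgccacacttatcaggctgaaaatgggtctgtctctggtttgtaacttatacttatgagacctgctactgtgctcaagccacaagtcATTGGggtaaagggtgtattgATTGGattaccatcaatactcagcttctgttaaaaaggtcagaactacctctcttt
Slc2a5: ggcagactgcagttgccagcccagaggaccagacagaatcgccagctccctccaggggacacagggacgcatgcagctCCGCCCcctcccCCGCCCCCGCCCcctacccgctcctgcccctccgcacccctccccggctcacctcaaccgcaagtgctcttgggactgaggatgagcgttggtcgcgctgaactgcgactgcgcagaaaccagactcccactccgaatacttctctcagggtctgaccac
Hk1: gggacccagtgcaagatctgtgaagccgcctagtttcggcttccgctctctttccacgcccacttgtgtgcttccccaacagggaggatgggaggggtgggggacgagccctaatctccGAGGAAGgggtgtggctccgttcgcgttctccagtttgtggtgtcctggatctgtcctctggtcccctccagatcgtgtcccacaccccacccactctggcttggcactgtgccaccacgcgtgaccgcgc
Hk2: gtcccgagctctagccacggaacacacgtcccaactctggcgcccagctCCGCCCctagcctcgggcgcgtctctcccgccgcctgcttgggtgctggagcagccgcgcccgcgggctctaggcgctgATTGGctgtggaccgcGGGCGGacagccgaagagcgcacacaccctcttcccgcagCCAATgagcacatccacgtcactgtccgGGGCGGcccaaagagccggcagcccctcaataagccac

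The motifs were the TATA box (TATAAA), the CCAAT box, the GC box (GGGCGG), an E-box (CACGTG), the 10-letter core of MEF2 sites, GTTAAT (a core of HNF1 sites) and GAGGAAG (a core of PU.1 sites), and their matches did not overlap in the 4 windows. The window of Slc2a2 held CCAAT at 2 places, 77 to 73 and 56 to 52 bases before the start, both on the minus strand. The window of Slc2a5 held 3 GC boxes and that of Hk2 held 3 GC boxes and 2 CCAAT. That of Hk1 held 1 GAGGAAG, 131 to 125 bases before the start, and its other listed window held no match. Of all 32851 windows of the same length, 33.8% held CCAAT, 32.7% the GC box, 10.6% GAGGAAG, 12.4% TATAAA, 6.43% GTTAAT, 6.02% CACGTG, and 3.20% the MEF2 core. The GC content was 47.2% for Slc2a2, 66.4% for Slc2a5, 62.8% for Hk1 and 69.6% for Hk2. These matches describe the letters of the windows and were not tested against the expression values.

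Levels are given as log2 intensity relative to the 75th percentile of the same array, so that 0 is the brightness of that percentile, and they are comparable between samples for 1 probe but not between probes. A gene was tested in a tissue where a probe was called well above background by the scanner software on at least 3 arrays of 1 group, and the brightest such probe stood for the gene. Differences were tested with limma, and a gene was called at a Benjamini-Hochberg adjusted p below 0.05 over all genes tested. Errors of differences are standard errors (SE), and errors of levels are standard deviations (SD). The tissue labels held. The summed level of 6 hepatocyte markers was 10.95 to 11.48 in liver and at most 7.05 elsewhere, that of 6 muscle fibre markers 11.91 to 12.36 in muscle and at most 6.65 elsewhere, and that of 6 adipocyte markers 10.21 to 10.84 in fat and at most 8.33 elsewhere. The third Akt1+/- muscle replicate at 8 weeks stood apart with a hepatocyte marker level of 5.56, against 0.27 to 2.72 on the other muscle arrays, and values without it are given for the muscle differences of genotype and age. In whole tissue, fewer cells of a type and less RNA per cell cannot be told apart.

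Most of the 8 genes differed between tissues, by up to 11.91 ± 0.15 on the log2 scale for Slc2a4 between muscle and liver. Between muscle and liver 8 of 8 were called (85.8% of the 19861 genes tested), between fat and liver 6 of 8 (86.2% of all genes) and between muscle and fat 7 of 8 (87.6%). These shares are near those of all genes, so only the sizes are described here. The largest limma adjusted p of a called difference was 1.34e-05, for Slc2a1 between muscle and liver.

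**Figure D1:**
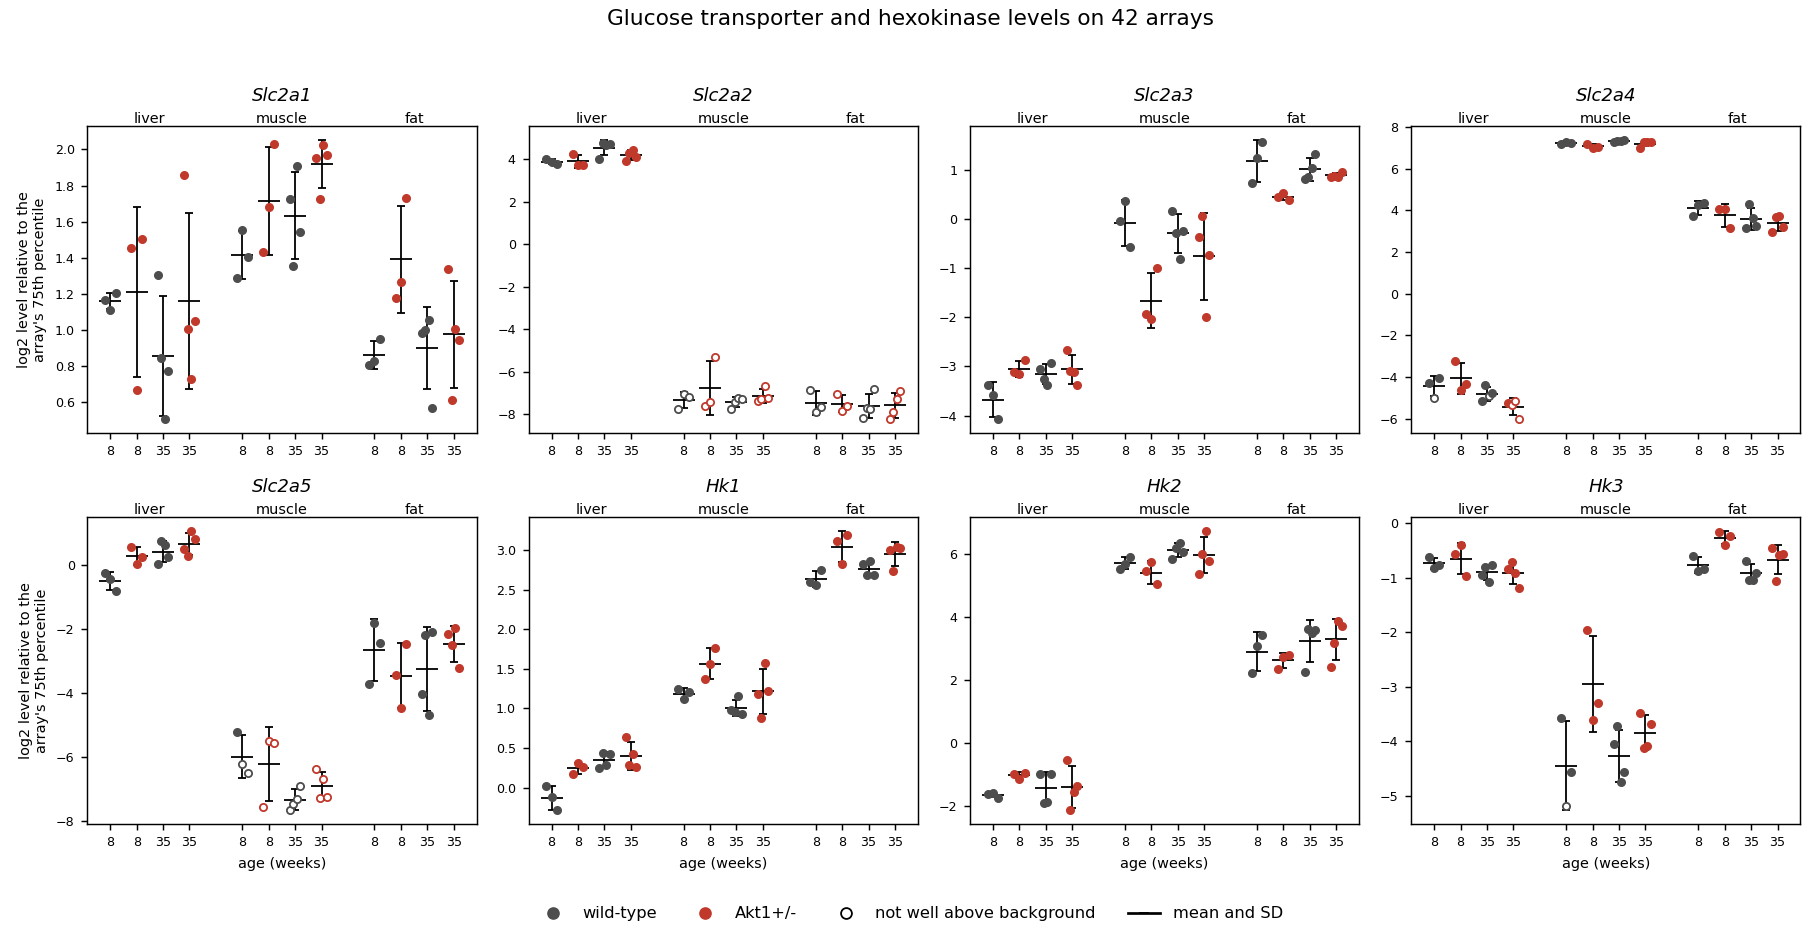
Log2 level relative to the 75th percentile of the array (y axis) of the brightest probe of each gene on all 42 arrays, by tissue, genotype and age (for Slc2a2, the probe A_51_P185693). Open symbols are spots not well above background. Slc2a4 and Hk2 were highest in muscle, Slc2a2 and Slc2a5 in liver, and Slc2a3 and Hk1 in fat, and each point is 1 array.

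Slc2a4, the insulin-responsive transporter, was measured by the probe A_51_P217498 (chr11:69758766-69758825, mm8), which the array carries 10 times. Its level was 7.0 to 7.38 (median 7.27) on the 14 muscle arrays, 2.95 to 4.36 (median 3.71) on the fat arrays and −6.01 to −3.23 (median −4.84) on the liver arrays, where it was well above background on 9 of 14. The 3 ranges did not overlap. Muscle was above fat by 3.50 ± 0.15 on the log2 scale, which is 11.3-fold, and fat above liver by 8.40 ± 0.15, against partly undetected liver values. Across the 14 muscle arrays the SD was 0.12, against 0.48 in fat.

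Hk2, which phosphorylates glucose in muscle and fat, followed the same order of tissues. It lay between 5.04 and 6.72 (median 5.81) in muscle, between 2.22 and 3.86 (median 3.13) in fat and between −2.11 and −0.52 (median −1.44) in liver. No array of 1 tissue entered the range of another. The difference was 6.88-fold between muscle and fat and 20.8-fold between fat and liver.

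Slc2a2 was measured by 2 probes. The brighter one in liver, A_51_P185693 (chr3:28919167-28919226, mm8), was at 3.72 to 4.76 (median 4.07) on the 14 liver arrays and was not well above background on any muscle or fat array. Only a bound can be given for such a contrast, and it was at least 682-fold over muscle and at least 982-fold over fat. The bound sets the mean of the liver arrays against the dimmest signal that counted as well above background on the muscle or fat arrays. The second probe, A_52_P409988, was at 1.29 to 2.51 in liver and was well above background on 5 muscle arrays, all of them Akt1+/-, and on 3 fat arrays.

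Slc2a5, the fructose transporter, was also a liver-enriched member. Its level was −0.81 to 1.05 (median 0.27) in liver and −4.68 to −1.82 (median −2.48) in fat, and it was well above background on 1 of 14 muscle arrays. Liver and fat did not overlap, and liver was above fat by 3.17 ± 0.27 (log2). Hk3, the myeloid hexokinase, overlapped between liver (−1.2 to −0.41) and fat (−1.06 to −0.17), with a difference of 0.15 ± 0.15 (95% interval −0.15 to 0.44, limma adjusted p = 0.343), which turned to −0.03 when the arrays were scaled to their medians. In muscle it was lower, at −5.19 to −1.96, which was a difference of −3.07 ± 0.15 from liver.

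The transporters of basal uptake had other orders. Slc2a3 (A_52_P354744, chr6:122693676-122693735, mm8) was lowest in liver, at −4.06 to −2.67 (median −3.14), intermediate in muscle, at −2.04 to 0.37 (median −0.48), and highest in fat, at 0.39 to 1.56 (median 0.85). Muscle and fat ranges touched at 0.37 and 0.39 without overlapping, and the mean difference between them was 1.58 ± 0.15 (log2). The array lists 2 other probes under this name, and both were dim. A_52_P371514, also on chromosome 6, was well above background on none of 42 arrays. A_52_P283862 was so on 5, but the array places it on chromosome 17, so it may not measure Slc2a3. Slc2a1 was the member with the most even level, at 0.51 to 1.86 in liver, 1.29 to 2.03 in muscle and 0.57 to 1.73 in fat. Its ranges overlapped between all tissues, although muscle was above liver by 0.57 ± 0.11 and above fat by 0.64 ± 0.11. Fat and liver were not told apart (−0.06 ± 0.11, 95% interval −0.29 to 0.16, limma adjusted p = 0.578), but with arrays scaled to their medians Slc2a1 was called as lower in fat (−0.24, limma adjusted p = 0.031).

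Hk1 was lowest in liver, intermediate in muscle and highest in fat. Its brightest probe, A_52_P102773 (chr10:61664525-61664584, mm8), was at −0.28 to 0.64 (median 0.28), 0.88 to 1.76 (median 1.19) and 2.56 to 3.18 (median 2.82) in these tissues, with no overlap. Fat was above muscle by 1.60 ± 0.06 (log2) and muscle above liver by 1.03 ± 0.06. Of the 5 other probes, 2 (A_51_P249024 and A_52_P674530) were well above background on all 42 arrays and gave the same order of medians, from −3.06 and −3.02 in liver to −1.92 and −2.44 in muscle and −1.13 and −1.31 in fat.

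Several of the called differences changed in size with the background correction and the probes, while their directions and calls did not. Differences that were not called were less stable. Slc2a2 between muscle and fat ranged from −0.07 to 0.72 over the alternatives and was called in 3 of them. Slc2a1 and Hk3 changed sign between fat and liver. After normexp correction with quantile normalization, fat was above liver by 6.33 for Slc2a4 and by 2.96 for Slc2a3, and below it by 2.11 for Slc2a5 (log2). Under the same setting muscle differed from liver by −1.66 for Hk3 and by 1.57 for Slc2a3, and from fat by −1.73 for Hk3 and −0.86 for Slc2a5. With the mean of all its probes, Hk1 differed by −0.81 between muscle and fat.

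Over all 12 groups, each gene's pattern was compared with those of 19860 other genes by the correlation of the 12 group means, as a description with no test, since tissue differences fill these means. The most alike for Slc2a4 were Tmem182, 9330159F19Rik and Brms1l (r = 1.0 each when rounded). For Hk2 they were Synpo2, Phactr2 and Podxl2, for Slc2a2 Ces2c, AK050258 and Sds, and for Slc2a5 Rtf2, Fgf21 and Map3k13 (r of 0.99 to 1.0). For Hk1 they were Selenon, Ms4a4d and Ssbp4 (r = 1.0 each), and for Slc2a3 Rpusd1, Filip1l and Oscp1 (r = 0.98 each). Those of Hk3 were Clec7a, Cd52 and Fcgr1 (r of 0.99 to 1.0), which code for surface proteins of myeloid and other leukocytes. Slc2a1 had no gene at r of 0.95 or more, and its nearest were Ankrd49, NAP061492-1 and ENSMUST00000024982 (r of 0.93 to 0.94), whereas each other member had from 387 to 1039 such genes.

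The main question of the design was whether loss of 1 Akt1 copy changed these levels. No member was called for genotype over both ages in any tissue. In liver 0 of 8 were called (6.26% of all 17561 genes), in muscle 0 of 7 (0% of 17138 genes) and in fat 0 of 7 (0.822% of 18366 genes), with Slc2a5 too dim to be tested in muscle and Slc2a2 in fat. At an unadjusted limma p below 0.05 there were 3 members in liver (26.4% of all genes passed there), 6 in muscle (18.5%) and 4 in fat (19.2%). Unadjusted exact permutation tests, run only on the members and Akt1, gave 3, 6 and 3 members. These have no share of all genes to be set against. The muscle counts include Slc2a2, whose probe passed the filter only through the Akt1+/- samples at 35 weeks in which it was high, so that its difference was built into the choice. At 8 weeks no member was called in liver (2.16% of all genes), muscle (0%) or fat (1.84%), and at an unadjusted limma p below 0.05 there were 3 (20.9% of all genes), 4 (15.8%) and 4 (24.1%). At 35 weeks none was called either (3.56%, 0.0992% and 1.72% of all genes), and the unadjusted counts were 0 (17% of all genes), 1 (9.17%, again Slc2a2 in muscle) and 0 (12.3%). None was called for an interaction between genotype and age (0.564%, 0% and 1.64% of all genes), and the unadjusted counts were 0 (13.9% of all genes), 0 (8.40%) and 1, Slc2a3 in fat (20.1%). The values below are therefore differences that did not pass the adjusted test, with their size and spread.

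**Figure D2:**
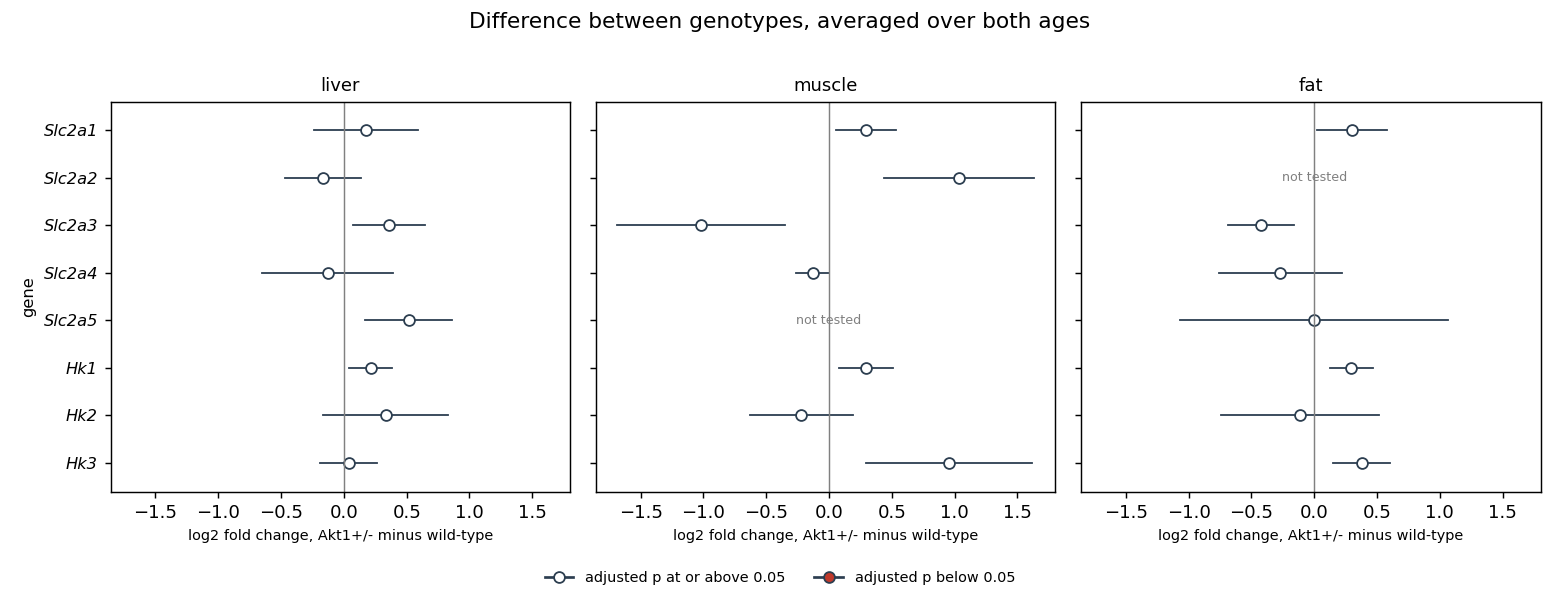
Difference between Akt1+/- and Wt samples (x axis, log2, averaged over both ages) of each gene in each tissue, with bars for the 95% confidence interval of the limma fit and red fill for an adjusted p below 0.05. No point was red, and the widest interval was that of Slc2a5 in fat, from −1.07 to 1.06.

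Slc2a3 had the largest genotype difference of a transporter measured on every array, and its estimate was negative in muscle and fat and positive in liver. In muscle at 8 weeks it was at −0.04, 0.37 and −0.58 in the 3 Wt samples and at −1.94, −2.04 and −1.01 in the 3 Akt1+/- samples. Every Akt1+/- array was below every Wt array, as for 12.8% of all genes at this age. At 35 weeks the Wt samples were at 0.16, −0.28, −0.81 and −0.25 and the Akt1+/- samples at −0.37, 0.06, −2.0 and −0.74, which overlapped. Over both ages the difference was −1.02 ± 0.31 (limma adjusted p = 0.151, 95% interval −1.69 to −0.35), and −1.19 without the third Akt1+/- replicate at 8 weeks (adjusted p = 0.206).

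In fat at 8 weeks Slc2a3 was at 0.72, 1.24 and 1.56 in Wt and at 0.43, 0.53 and 0.39 in Akt1+/- samples. The groups again did not overlap, as for 14.1% of all genes in that direction, and the difference was −0.72 ± 0.18 (limma adjusted p = 0.0592). At 35 weeks Wt samples were at 0.81, 0.85, 1.04 and 1.32 and Akt1+/- samples at 0.84, 0.88, 0.85 and 0.95. These overlapped, and the difference over both ages was −0.42 ± 0.12 (limma adjusted p = 0.115).

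In liver at 8 weeks Slc2a3 was at −3.38, −3.58 and −4.06 in Wt and at −3.12, −3.16 and −2.86 in Akt1+/- samples, so the order of the genotypes was the opposite one, again without overlap (11.1% of all genes in this direction). At 35 weeks Wt samples were at −3.05, −3.25, −3.38 and −2.93 and Akt1+/- samples at −2.67, −3.09, −3.11 and −3.38. They overlapped, and the difference over both ages was 0.36 ± 0.13 (limma adjusted p = 0.116).

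**Figure D3:**
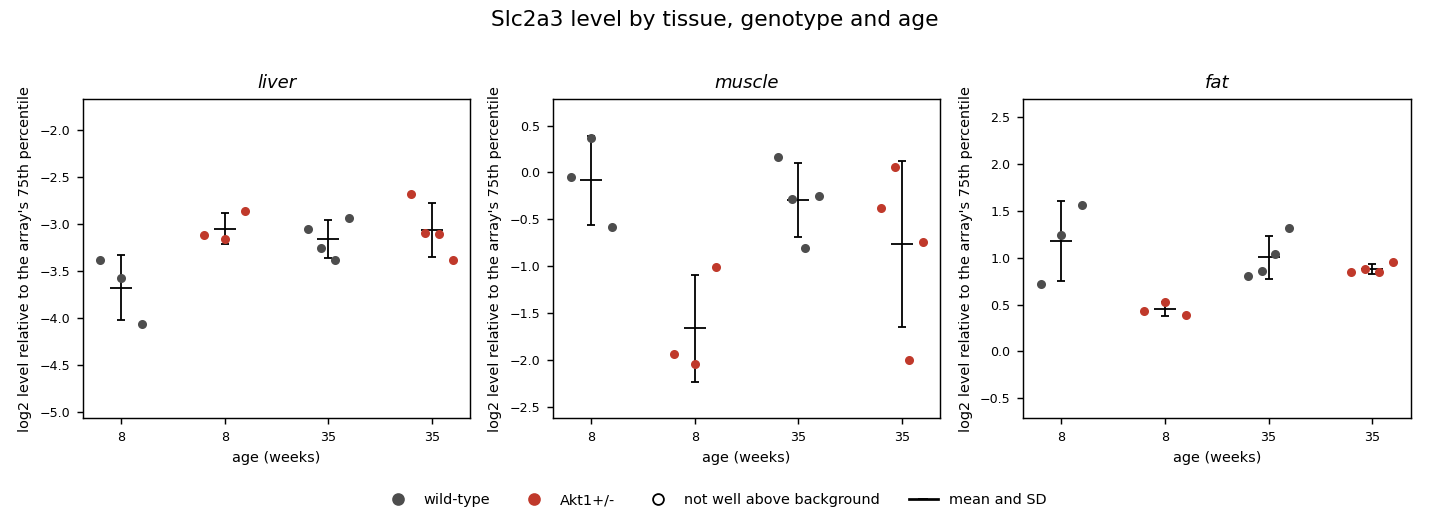
Log2 level of Slc2a3 relative to the 75th percentile of the array (y axis) in each tissue, age and genotype, with 1 point per array and bars for group means and SD, on a scale of its own in each panel. At 8 weeks the Akt1+/- points lay above the Wt points in liver and below them in muscle and fat, and at 35 weeks the groups overlapped in all 3 tissues.

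The genotype difference of Slc2a3 was tested between tissues in 1 fit over all 42 arrays. It differed between muscle and liver by −1.38 ± 0.31 on the log2 scale (limma adjusted p = 0.0296), and it was the single member of 8 called there (0.896% of all genes). Between fat and liver its genotype difference differed by −0.78 ± 0.31 (limma adjusted p = 0.141) and between muscle and fat by −0.60 ± 0.31 (0.345), and no member was called in these comparisons (4.26% and 0.74% of all genes). The fit gives 1 spread to all tissues, while the SD of Slc2a3 over all arrays of a tissue was 0.81 in muscle, 0.34 in liver and 0.33 in fat. A call for 1 pair of tissues and none for another therefore does not show that the pairs differ. Without the muscle array that stood apart, the value between muscle and liver was −1.54 (limma adjusted p = 0.0316). The call between muscle and liver was lost with the slide as a random block (limma adjusted p = 0.0749), without the first Akt1+/- liver replicate at 35 weeks (0.0507) and without the second Wt muscle replicate at 8 weeks (0.0627). In that 42-array fit, which pools the spread of the 3 tissues, 2 members were called for genotype in muscle, Slc2a3 at −1.02 (limma adjusted p = 0.0143) and Hk3 at 0.96 (limma adjusted p = 0.0147), of 8 tested there (1.44% of all genes). Both genes varied most in muscle (SD 0.81 and 0.78), so the pooled spread understates that of muscle. Fitted on muscle alone, neither was called (limma adjusted p = 0.151 and 0.161). On the only slide per tissue that held both genotypes at 8 weeks, the difference of Slc2a3 was −1.85 in muscle (3 Wt arrays and 1 Akt1+/- array) and −1.11 in fat (1 and 3). In liver at 8 weeks and in all tissues at 35 weeks each slide held 1 genotype, so slide and genotype cannot be told apart there.

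Hk1 was higher in all 3 Akt1+/- samples than in all 3 Wt samples at 8 weeks in each tissue. In liver it was at 0.01, −0.12 and −0.28 in Wt and at 0.17, 0.31 and 0.26 in Akt1+/- samples. In muscle it was at 1.24, 1.11 and 1.2 against 1.37, 1.56 and 1.76, and in fat at 2.60, 2.56 and 2.75 against 3.12, 2.82 and 3.18. No other member had the same order without overlap in all 3 tissues, and the shares of all genes with this order, each tissue taken alone, were 11.1%, 9.59% and 13.0%. The share with this order in all 3 tissues at once was not computed and cannot be had by multiplying these.

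At 35 weeks the Hk1 values of the genotypes overlapped in each tissue. Averaged over both ages the difference was 0.21 ± 0.08 in liver (limma adjusted p = 0.115), 0.30 ± 0.10 in muscle (0.177) and 0.30 ± 0.08 in fat (0.0978), or 1.16-fold, 1.23-fold and 1.23-fold. Without the muscle array that stood apart, the muscle difference was 0.25 (limma adjusted p = 0.359). The tissues were not told apart, since the genotype difference differed by 0.08 ± 0.12 between muscle and liver (limma adjusted p = 0.794). The other 2 probes measured on every array, A_51_P249024 and A_52_P674530, differed in the same direction in each tissue. Their estimates were 0.19 and 0.27 (liver), 0.18 and 0.22 (muscle), 0.15 and 0.25 (fat). Within the slide with both genotypes the difference at 8 weeks was 0.18 in muscle and 0.29 in fat.

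Hk3 had positive estimates in muscle and fat. In muscle at 8 weeks it was at −3.58, −5.19 and −4.57 in Wt samples, the second of them not well above background, and at −1.96, −3.61 and −3.30 in Akt1+/- samples, which overlapped by 1 array. The difference over both ages was 0.96 ± 0.30 (limma adjusted p = 0.161), and 1.04 without the muscle array that stood apart (0.254). In fat at 8 weeks it was at −0.60, −0.87 and −0.85 against −0.17, −0.40 and −0.23, with no overlap, and at 35 weeks at −0.69, −1.04, −1.04 and −0.91 against −0.47, −1.06, −0.59 and −0.56, with overlap. The fat difference was 0.38 ± 0.10 (limma adjusted p = 0.105), and in liver it was 0.04 ± 0.10 with the genotypes intermixed (−0.09 with arrays scaled to their medians).

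Neutrophil markers moved with these 8-week groups in all 3 tissues, and macrophage markers in muscle and liver but not in fat. The summed level of 6 neutrophil markers (S100a8, S100a9, Ngp, Camp, Ltf and Csf3r) was −2.84 to −0.87 in Wt and −0.08 to 2.92 in Akt1+/- muscle, −1.05 to −0.92 and 0.08 to 3.15 in fat, and 0.05 to 0.26 and 1.56 to 2.87 in liver. Of the 6 markers, 4 were well above background on no Wt muscle array at 8 weeks, against 1 on no Akt1+/- muscle array. The summed level of 6 macrophage markers was 4.67 to 5.68 in Wt and 5.70 to 6.22 in Akt1+/- muscle at 8 weeks, in liver 5.65 to 6.04 and 6.32 to 6.64, and in fat 7.79 to 8.0 and 7.94 to 8.06. At 35 weeks the neutrophil level was −1.99 to −1.02 in Wt and −0.58 to 3.65 in Akt1+/- muscle, while it overlapped between the genotypes in fat (−0.48 to 0.87 and 0.21 to 1.07) and liver (1.46 to 2.80 and 1.94 to 3.36). Adipocyte markers in muscle, a tissue below fat for Hk1 and Slc2a3, were at 7.23 to 7.49 in Wt and 7.57 to 8.30 in Akt1+/- samples at 8 weeks. The summed level of 6 endothelial markers also differed at 8 weeks without overlap in muscle (4.29 to 4.4 in Wt and 4.74 to 4.96 in Akt1+/- samples) and fat (5.31 to 5.52 and 5.56 to 5.61), as did 5 nerve markers in fat (2.69 to 2.84 and 2.98 to 3.13). Lymphocyte markers in liver at 8 weeks were at 0.05 to 0.49 in Wt and 0.91 to 1.10 in Akt1+/- samples. Nerve markers in liver at 8 weeks were at −1.27 to −1.12 in Wt and −1.06 to −0.81 in Akt1+/- samples. Erythroid markers in muscle went the other way, at 5.60 to 6.12 in Wt and 5.09 to 5.29 in Akt1+/- samples at 8 weeks. So did each tissue's own markers at 8 or 35 weeks. Hepatocyte markers in liver at 8 weeks were at 11.36 to 11.48 in Wt and 11.06 to 11.19 in Akt1+/- samples. Fibre markers in muscle at 35 weeks were at 12.28 to 12.36 and 12.16 to 12.27. Adipocyte markers in fat at 35 weeks were at 10.63 to 10.84 and 10.21 to 10.5. At the other age each set overlapped. The part of these cells in the differences of Hk3 and of the other members was not tested.

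Slc2a5 had the largest estimate in liver. Its levels at 8 weeks were −0.27, −0.44 and −0.81 in Wt and 0.57, 0.03 and 0.26 in Akt1+/- samples. The groups did not overlap, as was also true of Slc2a3, Hk1 and Hk2 in the same direction in liver (4 of 8 members, 11.1% of all genes). At 35 weeks they were 0.02, 0.75, 0.63 and 0.26 against 0.49, 0.27, 1.05 and 0.80, and overlapped. The difference over both ages was 0.52 ± 0.16, or 1.43-fold (limma adjusted p = 0.0705). In fat it was −0.00 ± 0.49, with a 95% interval of −1.07 to 1.06.

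Hk2 in liver at 8 weeks was at −1.59, −1.59 and −1.73 in Wt and at −0.99, −1.12 and −0.94 in Akt1+/- samples, a difference of 0.62 ± 0.34 (limma adjusted p = 0.331). At 35 weeks its values spread from −1.88 to −0.96 in Wt and from −2.11 to −0.52 in Akt1+/- liver. In muscle, where Hk2 is the main form, the genotypes overlapped at both ages, with a difference of −0.22 ± 0.19 (95% interval −0.63 to 0.19), and −0.13 without the muscle array that stood apart. In fat the difference was −0.11 ± 0.29 (95% interval −0.74 to 0.52).

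The genotype difference of Slc2a4 in muscle had the narrowest interval of the transporters. In muscle at 8 weeks it was at 7.18, 7.27 and 7.24 in Wt and at 7.19, 7.01 and 7.07 in Akt1+/- samples, and at 35 weeks at 7.31, 7.31, 7.34 and 7.38 against 7.0, 7.28, 7.26 and 7.31. The ranges overlapped at both ages, at 35 weeks only at 7.31. The difference was −0.13 ± 0.06, or 0.913-fold, with a 95% interval of −0.26 to −0.00 (limma adjusted p = 0.264), and it was also −0.13 without the muscle array that stood apart. In fat it was −0.27 ± 0.23 (95% interval −0.76 to 0.22), with Wt samples from 3.16 to 4.36 and Akt1+/- samples from 2.95 to 4.09 over both ages.

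Slc2a1 was higher in all 3 Akt1+/- fat samples at 8 weeks, at 1.18, 1.27 and 1.73 against 0.81, 0.83 and 0.95 in Wt samples (13% of all genes in this direction). At 35 weeks the fat samples overlapped, at 1.34, 0.61, 1.01 and 0.95 against 0.98, 1.0, 1.06 and 0.57. The difference over both ages was 0.30 ± 0.13 in fat (limma adjusted p = 0.227), 0.29 ± 0.11 in muscle (0.205) and 0.18 ± 0.19 in liver (0.59), and 0.21 in muscle without the array that stood apart (0.408).

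Slc2a2 in liver was at 4.01, 3.88 and 3.79 in Wt and at 4.25, 3.75 and 3.72 in Akt1+/- samples at 8 weeks, and at 4.01, 4.76, 4.68 and 4.74 against 3.93, 4.32, 4.42 and 4.13 at 35 weeks. The genotypes overlapped at both ages, and the difference was −0.17 ± 0.14 (95% interval −0.47 to 0.14), with −0.22 ± 0.17 by the second probe. In muscle the second probe passed the filter only through the Akt1+/- samples at 35 weeks, so a difference there was built into its choice. Its muscle values at 35 weeks were −5.54, −6.22, −5.97 and −5.58 in Wt and −4.53, −4.72, −4.87 and −4.72 in Akt1+/- samples, near the limit of detection, and were the only values of a member without overlap at 35 weeks in any tissue (3.43% of all genes in this direction in muscle).

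Age was compared over both genotypes, and in liver 4 of the 8 members were called (35.1% of all genes). Slc2a2, Slc2a5 and Hk1 were higher at 35 weeks (20.1% of all genes were called higher) and Slc2a4 was lower (15.0%). In muscle 0 of 7 members were called (31.3% of all genes) and in fat 0 of 7 (19.3%). At an unadjusted limma p below 0.05 there were 3 members in muscle (43.1% of all genes) and 1 in fat (34.4%). The muscle count includes Slc2a2, whose probe passed the filter only through the Akt1+/- samples at 35 weeks. An age difference was therefore also built into its choice. The 8-week and 35-week samples were scanned on different days and slides, so age and scan cannot be told apart.

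**Figure D4:**
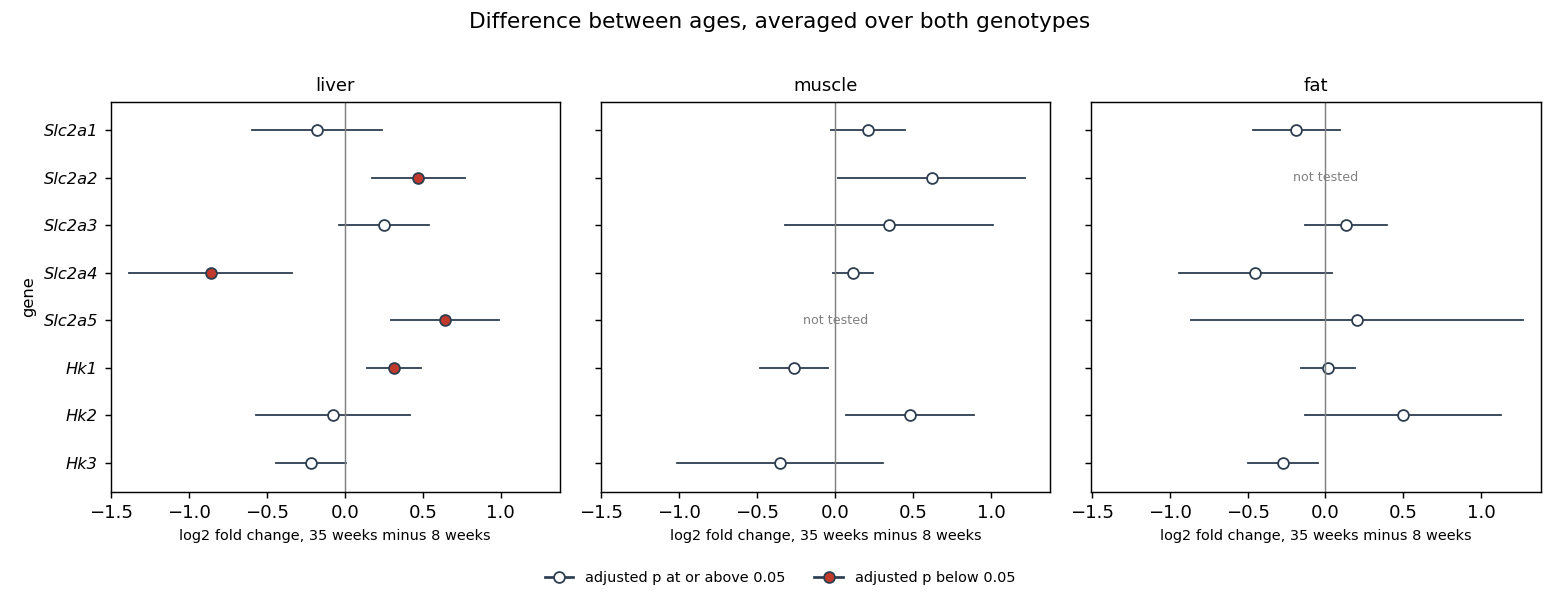
Difference between 35 and 8 weeks (x axis, log2, averaged over both genotypes) of each gene in each tissue, with bars for the 95% confidence interval of the limma fit and red fill for an adjusted p below 0.05. The 4 red members, Slc2a2, Slc2a4, Slc2a5 and Hk1, were all in liver.

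In liver, Slc2a5 rose by 0.64 ± 0.16 on the log2 scale, or 1.56-fold (limma adjusted p = 0.00815), from −0.81 to 0.57 on the 6 arrays at 8 weeks to 0.02 to 1.05 on the 8 arrays at 35 weeks, with overlapping ranges. Hk1 rose by 0.32 ± 0.08, or 1.25-fold (limma adjusted p = 0.00862). Within Wt samples its ranges did not overlap, at −0.28 to 0.01 and 0.24 to 0.44, and within Akt1+/- samples they did, at 0.17 to 0.31 and 0.25 to 0.64. Slc2a2 rose by 0.47 ± 0.14, or 1.39-fold (limma adjusted p = 0.0195), but its second probe, A_52_P409988, gave −0.05 ± 0.17 (limma adjusted p = 0.83). Slc2a4 fell by 0.86 on the log2 scale (SE 0.24, limma adjusted p = 0.0157). That fall was near the limit of detection, since 5 of the 6 samples at 8 weeks and 4 of the 8 at 35 weeks were well above background, and it was −0.19 after normexp correction with quantile normalization (limma adjusted p = 0.0215).

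Markers of other cells moved with age in liver. The summed level of 6 adipocyte markers was 2.73 to 3.07 at 8 weeks and 1.98 to 2.70 at 35 weeks. Only 1 of the 6 was well above background on all liver arrays, so this sum rests on few of them. In Wt liver the macrophage markers went from 5.65 to 6.04 up to 6.57 to 6.90 and the neutrophil markers from 0.05 to 0.26 up to 1.46 to 2.80, and in Akt1+/- liver both overlapped between the ages. The part of these cells in the age differences of Slc2a2, Slc2a4, Slc2a5 and Hk1 was not tested.

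The liver values depended on the point to which the arrays were scaled. Scaling to the median in place of the 75th percentile moved the age difference of the median liver gene from 0.02 to −0.18, and the share of liver age calls that were higher from 57.2% to 24.5%. Relative to the median gene, the age differences were 0.63 for Slc2a5, 0.46 for Slc2a2, 0.30 for Hk1 and −0.88 for Slc2a4. These values are the same under both scalings by construction, since scaling subtracts 1 constant per array. With median scaling Slc2a5 and Slc2a4 were still called, Hk1 (0.12, limma adjusted p = 0.236) and Slc2a2 (0.28, 0.142) were not, and Hk3 was called as lower (−0.41, 0.00688). For genotype the liver shift was from 0.02 to −0.11 and the share of higher calls went from 59.7% to 15.7%, and no member was called under either.

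By its brightest probe, Hk1 was the member whose age difference most clearly differed between tissues. In muscle its brightest probe was at 1.11 to 1.76 at 8 weeks and 0.88 to 1.58 at 35 weeks, a difference of −0.27 ± 0.10 (limma adjusted p = 0.061), and −0.22 without the muscle array that stood apart (0.138). In the fit over all arrays the age difference in muscle was below that in liver by 0.58 ± 0.12 (limma adjusted p = 0.00103), and this call held with each of the 42 arrays left out. Without the muscle array that stood apart, the difference between the tissues was −0.53 (limma adjusted p = 0.00305). Of the 8 members, 3 were called in this comparison (18.8% of all genes). The others were Slc2a4, with a difference of 0.97 ± 0.29 (limma adjusted p = 0.0176), and Slc2a5, with −1.66 ± 0.53 (limma adjusted p = 0.0265), and both include values not well above background, in liver for the first and in muscle for the second. Neither was called after normexp background correction with quantile normalization, at 0.24 (limma adjusted p = 0.491) and −0.60 (limma adjusted p = 0.0533). The call of Slc2a5 was also lost without the first Wt, the second Akt1+/- or the third Akt1+/- muscle replicate at 8 weeks (limma adjusted p = 0.0612, 0.0569 and 0.0541). No member was called for the age difference between fat and liver (16.2% of all genes) or between muscle and fat (16.4%).

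The probes of Hk1 did not give 1 age difference in muscle. A_52_P674530 and A_52_P479599, which lie within 1 kb of the brightest probe at the end of the gene farthest from its start, fell by 0.43 (limma adjusted p = 0.0019) and 0.51 (0.0168), each probe being tested on its own. A_51_P249024 had a difference of 0.22 ± 0.09 (0.0916) and A_52_P9337 one of 0.26 ± 0.20 (0.345). In liver, A_52_P674530 rose by 0.43 ± 0.09 (limma adjusted p = 0.0027) and A_51_P249024 had a difference of 0.26 ± 0.14 (0.177), both of the same sign as the brightest probe. In fat the 5 probes tested had differences from −0.12 to 0.03 and none was called. The probe A_52_P87141 was well above background on no array.

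**Figure D5:**
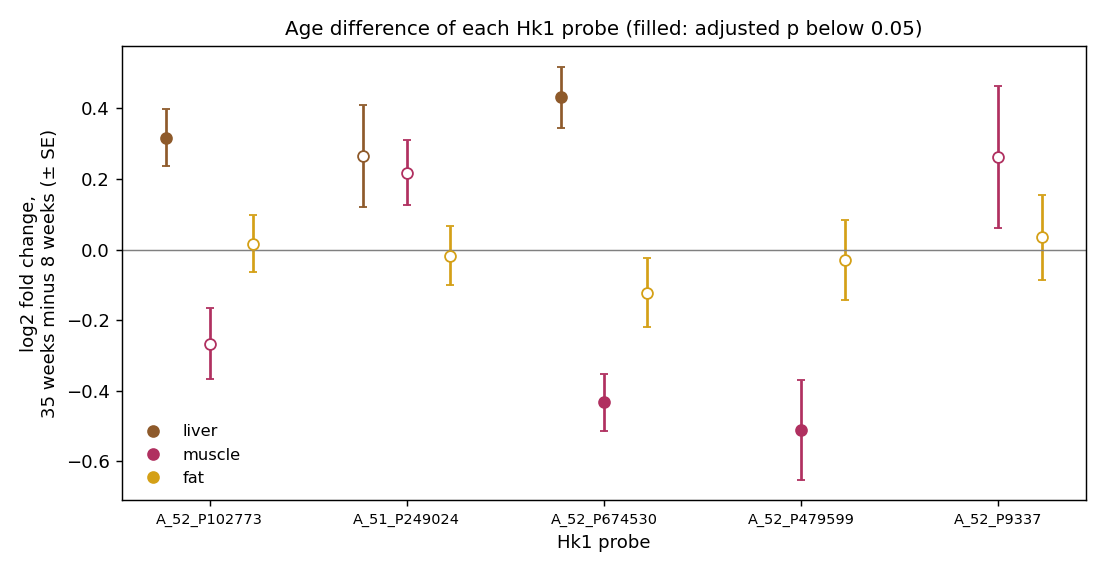
Age difference (y axis, log2, 35 minus 8 weeks, ± SE) of each Hk1 probe tested (x axis), by tissue, with filled points for an adjusted p below 0.05. In muscle A_52_P674530 and A_52_P479599 lay below 0 and A_51_P249024 and A_52_P9337 above it, and the fat values lay near 0.

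Hk2 in muscle had an age difference of 0.48 ± 0.19 (limma adjusted p = 0.0723; 0.39 and 0.162 without the muscle array that stood apart), from 5.04 to 5.91 at 8 weeks and from 5.35 to 6.72 at 35 weeks. In fat it had one of 0.50 ± 0.29 (0.247), with a wide spread at both ages. Slc2a4 differed with age by 0.12 ± 0.06 in muscle (limma adjusted p = 0.156) and by −0.45 ± 0.23 in fat (0.18). Hk3 had negative estimates in all 3 tissues, at −0.21 ± 0.10 in liver, −0.36 ± 0.30 in muscle and −0.27 ± 0.10 in fat (limma adjusted p = 0.127, 0.4 and 0.0813). Slc2a3 had estimates of 0.25 ± 0.13, 0.34 ± 0.31 and 0.13 ± 0.12, and Slc2a1 of −0.18 ± 0.19, 0.21 ± 0.11 and −0.19 ± 0.13, none of them called. Without the muscle array that stood apart, the muscle estimates were −0.44 for Hk3, 0.51 for Slc2a3, 0.29 for Slc2a1 and 0.11 for Slc2a4, and none was called.

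Around these 8 genes, 83 genes of 8 lists were read, covering other hexose kinases, other SLC2A transporters, proteins that carry GLUT4 vesicles, transcription factors of transporter and hexokinase genes, glycolysis, glycogen, users of glucose 6-phosphate and fructose metabolism. For genotype over both ages, 3 of the 77 tested in liver were called (3.90%, against 6.26% of all genes), all of them lower in Akt1+/- samples (2.52% of all genes). They were Khk, the first enzyme of fructose breakdown, at −0.61 ± 0.11 (limma adjusted p = 0.0165), Pgls of the pentose phosphate pathway at −0.45 ± 0.06 (0.0083), and the muscle enolase Eno3 at −0.30 ± 0.08 (0.0419). None of 76 was called in muscle and none of 78 in fat.

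In fat at 8 weeks 4 of 78 were called (5.13%, against 1.84% of all genes), all lower in Akt1+/- samples (0.942% of all genes). These were Gckr at −1.49 ± 0.23 (limma adjusted p = 0.0331), the muscle phosphofructokinase Pfkm at −0.69 ± 0.16 (0.0472), and 2 glycogen enzymes, the branching enzyme Gbe1 at −1.12 ± 0.25 (0.0458) and the phosphorylase Pygb at −1.07 ± 0.20 (0.0381). The median of the 78 genes was −0.25, against −0.02 for all genes, with estimates below 0 for 14 of 18 glycolysis genes, 9 of 11 glycogen genes and 8 of 8 users of glucose 6-phosphate. The share of all genes below 0 was not computed, and the other lists are not counted here. Genes of a list can move together, so these counts only describe directions. Gckr was also the single gene of the lists called for the interaction in fat, at 1.56 ± 0.30 (limma adjusted p = 0.0294). The summed level of muscle fibre markers was 4.97 to 6.65 in Wt and 3.96 to 5.37 in Akt1+/- fat at 8 weeks, and that of hepatocyte markers 6.55 to 6.89 and 6.37 to 6.43, the latter without overlap. Of the 6 hepatocyte markers, only 3 were well above background on all fat arrays, and Ttr was on no fat array at 8 weeks. The part of other cell types in these differences was not tested. For the members the medians in this comparison were −0.53 over 4 transporters and 0.40 over 3 hexokinases.

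With age, 17 of 77 genes of the lists were called in liver (22.1%), 22 of 76 in muscle (28.9%) and 8 of 78 in fat (10.3%), each share below that of all genes. In liver, Tkfc of fructose breakdown rose by 0.78 ± 0.14, G6pc, the glucose 6-phosphatase that releases glucose, by 0.49 ± 0.15, Slc2a6 by 0.76 ± 0.19 and Tbc1d4, a target of Akt in GLUT4 traffic, by 0.59 ± 0.19. The liver phosphofructokinase Pfkl fell by 0.55 (SE 0.06), and Gckr, the single gene called of 4 other hexose kinases, fell by 0.18 (SE 0.06). In muscle, Mef2c, a factor of the Slc2a4 promoter, rose by 0.63 ± 0.15, Tbc1d4 by 0.59 ± 0.15 and Ldhb by 0.54 ± 0.15, while the enolase Eno1 fell by 0.68 (SE 0.07), the transporter Slc2a13 by 0.57 (SE 0.12) and the glycogen phosphorylase Pygl by 0.41 (SE 0.11). In fat, Slc2a12 rose by 0.60 ± 0.19, Myo1c of GLUT4 traffic by 0.43 ± 0.11 and Ldhb by 0.25 ± 0.07, and Slc2a10 fell by 0.60 (SE 0.14) and Pygl by 0.52 (SE 0.17).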

How the data were processed

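Total RNA of each sample was hybridised by the authors to 1 one-colour (Cy3) Agilent Whole Mouse Genome array of 43379 non-control spots (41174 probes). The deposited intensities are processed signals of Agilent Feature Extraction, background-subtracted per the file headers (version 9.5.3.1 there and 9.1 in the labels). The deposited log2 values in the series table were scaled by the authors to the 75th percentile of each array in GeneSpring. They correlated with the scanner log2 signals of the same arrays at r = 1, and their columns had medians of −3.69 to −3.27. Here log2 of the processed signal minus the 75th percentile of the array was used, spots of a probe were averaged, flagged spots (14 of members) were left out, and no spot of a member was saturated. The 75th percentile was 274 to 795 intensity units and 56.5 to 68.6% of probes were well above background on an array. Precision is limited by how many arrays each group had.

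Each tissue was fitted with limma 3.58.1 (R 4.3.3) as 4 groups of genotype and age, and tissues were compared in 1 fit of 12 groups, over genes detected above background (scanner call) on 3 or more arrays of any group. Symbols came from RefSeq by accession (24362 probes) or older symbol (2426). Exact permutation tests permuted genotypes within ages, two-sided. Python 3.11.15, pandas 2.3.3, numpy 2.4.6, scipy 1.17.1 and matplotlib 3.10.9 were used. On simulated data with 200 genes changed by 1 on the log2 scale, the fits recovered 83.5% in liver, 88.5% in muscle and 82.0% in fat for genotype. The simulated noise was independent between arrays and held no slide effect, and most genotype estimates of members were smaller than 1. These shares check the fits and do not give the power for the members.

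The text names all 8 genes with their probes, Akt1, genes of the lists called for genotype or interaction, the largest called increase and decrease with age per list and tissue, and the 3 genes most alike to each member. Members and lists were chosen with earlier results of these data known. Same-numbered arrays deviated together at 35 weeks (12 pairs, r of 0.105 to 0.526), where the number is also the position on the slide, and not at 8 weeks (9 pairs, r of −0.195 to 0.0732). The arrays lay on 12 slides scanned on 5 days, with both ages on no slide. Alternatives were the authors' log2 table, median scaling, normexp followed by quantile normalization, other filters, other probes, slide or replicate blocks, 1 fit over all 42 arrays, exact tests, the methods' two-way test (unadjusted p below 0.01) and leaving out each array. The protein and probe sequences and an annotation of mm8 were not used here.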

Additional observations from a re-analysis of the deposited data

Results flagged for a closer look

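Of 48 groups of 4 arrays examined, 6 had 1 array far from the other 3, where chance gives about 1 in 20. Slc2a1 in Wt fat at 35 weeks was at 0.566 in replicate 4, against 0.98 in the nearest array. Slc2a2 in Wt liver at 35 weeks was at 4.01 in replicate 1, against 4.68. Slc2a2 in Akt1+/- fat at 35 weeks was at −2.83 in replicate 4, against −6.16, by the dimmer probe A_52_P409988, which was not tested in fat. Slc2a4 in Akt1+/- muscle at 35 weeks was at 7.004 in replicate 1, against 7.26. Hk1 in Akt1+/- fat at 35 weeks was at 2.73 in replicate 2, against 3.0. Hk2 in Wt fat at 35 weeks was at 2.25 in replicate 1, against 3.48.

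Between tissues, 4 differences were themselves called by limma. The genotype difference of Slc2a3 in muscle was −1.38 relative to that in liver. The age difference in muscle relative to liver was −0.58 for Hk1, 0.97 for Slc2a4 and −1.66 for Slc2a5, and the last 2 include arrays not well above background. The value of Hk1 is that of its brightest probe, and its probe A_51_P249024 had positive age estimates in both tissues.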

How the results depend on the processing

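Counts are of members called, out of 8 in liver, between tissues and in the fit over all 42 arrays, and out of 7 in the fits of muscle and fat. Shares of all genes are not given beside them, so they show only how calls moved with the processing. Unadjusted exact tests gave 3 members for genotype in liver, 6 in muscle, 3 in fat and 1 in muscle at 35 weeks (Slc2a2), against 0 after adjustment. The methods' two-way test gave 1 in muscle (again Slc2a2, whose muscle difference was built into the filter) and 3 in fat over both ages, and 1 in liver and 3 in fat at 8 weeks. One fit over all 42 arrays gave 2 in muscle for genotype (Slc2a3 and Hk3), 2 at 8 weeks, and 2 for age in liver (Hk1 and Slc2a4) and 2 in muscle (Hk1 and Slc2a5, the latter not tested within muscle), with the age difference of Slc2a2 in liver at −0.054 through its other probe. Median scaling gave 1 for age in muscle (Hk1). The slide block gave 2 for age in muscle (Hk1 and Hk2) and 0 for the genotype difference between muscle and liver. Normexp gave 1 for age in fat (Hk3) and 1 for the age difference between fat and liver, and gave an age difference of Slc2a2 of −0.64 between muscle and liver and −0.51 between fat and liver, both of opposite sign, but there its other probe was the brightest, so that normalization and probe changed together. Probes well above background on every array left 4 members to test, with 4 called between muscle and liver, 3 between fat and liver, 4 between muscle and fat and 1 for age between muscle and liver, since fewer members were tested. The cause was not tested for the other changes.

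The replicate block changed no call of a member within tissues. As a block across tissues it called Slc2a2 between muscle and fat (0.54, limma adjusted p = 0.0459, against 0.0605). With each array left out, counts ranged from 0 to 1 for genotype in liver (Slc2a5 without Akt1+/- 35-week replicate 2), 4 to 5 for age in liver (Hk3 without Akt1+/- 8-week replicate 3), 0 to 2 for age in muscle, 0 to 1 for genotype in fat over both ages (Slc2a3 without Wt 8-week replicate 1, Hk3 without Akt1+/- 35-week replicate 2) and 0 to 1 at 8 weeks (Slc2a3 without the same Wt array). For age in muscle, Hk2 and Slc2a4 were called without Akt1+/- 35-week replicate 1, and Hk1 without Akt1+/- 35-week replicate 3 or 8-week replicate 1. Slc2a2, whose muscle age difference was built into the filter, was called without Wt 8-week replicate 2. Counts ranged from 0 to 2 for the genotype difference between muscle and liver (Hk3 joined Slc2a3 without muscle Wt 8-week replicate 1), 2 to 3 for the age difference there, 0 to 1 for the age differences between fat and liver (Hk1 without fat Akt1+/- 8-week replicate 2) and muscle and fat (Slc2a5 without muscle Akt1+/- 8-week replicate 1 or fat Wt 35-week replicate 3, Hk1 without muscle Akt1+/- 35-week replicate 3), and 7 to 8 between muscle and fat. Leaving out any array moved no other count. Slc2a5 in muscle and Slc2a4 in liver lay near background, which limits their differences.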
